A study of Mus musculus with 6 samples.

Results

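Disome footprints of 10 genes of bile acid synthesis, conjugation and transport were followed in mouse liver over 3 times of day. When a ribosome runs into the one ahead of it on a messenger RNA, the stacked pair shields a longer fragment from nuclease, and this fragment is the disome footprint. The genes were taken from a fixed list of Ensembl identifiers, each paired with a symbol, and all 10 were found among the 8941 genes listed for each library. The tables hold identifiers only, and none of the 49997 genes of the RefSeq table carries an Ensembl identifier, so the symbols are those of the list and were not checked separately. The livers came from male C57BL/6JRj mice of 11 to 12 weeks, kept in 12 h of light and 12 h of dark. The groups were zeitgeber time 0 (ZT0, lights on), ZT2 (2 h into the light) and ZT12 (lights off, the start of the active phase of mice). Each group had 2 libraries, each made from a pool of 2 livers, and n counts libraries. The study's design text counts these 6 pools as separate biological samples. The labels name no treatment or altered gene in any group, and all lysates held cycloheximide, a drug that halts elongating ribosomes, and received 650 U RNase I over 45 min.

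Bile acids are made from cholesterol in hepatocytes. In the classic route Cyp7a1 makes the first, rate-limiting hydroxylation, and Cyp8b1 adds the hydroxyl group that turns the product into cholic acid. The alternative route starts with Cyp27a1, a mitochondrial sterol hydroxylase, and goes on through Cyp7b1, which hydroxylates oxysterols. Slc27a5 links bile acids to coenzyme A and Baat joins them to an amino acid, mostly taurine in mice. Abcb11 pumps bile salts into the canaliculus, and Slc10a1 takes them up again from blood. Nr1h4 (FXR) is the bile acid receptor, and Nr0b2 (SHP) is a receptor-like repressor that FXR induces and that lowers Cyp7a1 and Cyp8b1 transcription.

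Levels were given as RPKM, which divides a gene's reads by the length of its model and by a scale for the library, so they can be compared between genes. The footprints came from whole liver, where fewer cells of a type and less RNA per cell cannot be told apart. Transcript amounts and single-ribosome footprints were not analysed here. The share of messenger RNA amount, translation rate and pausing in a disome level was therefore not tested. Reads recovered from the RPKM steps totalled 6346387 to 12322651 per library. The ZT2 libraries differed most from each other: 1199 genes were over 2-fold apart between the ZT2 replicates, 120 between those at ZT0 and 432 between those at ZT12. Lists of liver cell type markers could not be matched to the identifiers, so other cell types were not tested.

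All 10 genes were well covered. The lowest count was 326 reads, for Nr0b2 in ZT2 replicate 1, with an exact 95% Poisson interval of 292 to 363 that covers counting error only. The highest was 11815 reads, for Cyp27a1 in ZT12 replicate 2. Every gene passed the filter of a mean of 1 RPKM over the 6 libraries, as 8355 listed genes did. Mean levels ran from 84.2 RPKM for Nr0b2 to 673 RPKM for Baat, against a median of 7.47 RPKM over all listed genes. By mean level Baat ranked 195th and Nr0b2 1123rd, so all 10 lay above 87.4% of listed genes. Their joint share of reads was 0.545% and 0.494% in the ZT0 libraries, 0.475% and 0.531% in the ZT2 libraries and 0.469% and 0.486% in the ZT12 libraries. The ZT12 value of 0.469% had an exact Clopper-Pearson interval of 0.465% to 0.473%, and the library-to-library spread was wider than such counting intervals. The recovered model lengths were whole codons for 9 genes, from 260 codons for Nr0b2 to 1321 for Abcb11. The exception was Nr1h4 with 1531 nucleotides.

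The promoter table from RefSeq (build GRCm38.p6) held 6 of the 10 genes. Cyp7a1, Cyp7b1, Slc27a5 and Baat had no window there, so their promoters were not searched. The 250 bases before a listed start are shown for Cyp8b1 and Nr1h4, whose disome levels passed a test below. They are also shown for Abcb11 and Nr0b2, which are known targets of the receptor that Nr1h4 encodes. The Nr1h4 window lies inside the gene, which spans chr10:89454234-89533645, so the start it precedes is an internal one. The other windows shown lie directly before their genes. Windows are chr9:121916306-121916555 (minus strand) for Cyp8b1, chr10:89506659-89506908 (minus strand) for Nr1h4, chr2:69342617-69342866 (minus strand) for Abcb11 and chr4:133553126-133553375 (plus strand) for Nr0b2. Each is written 5′ to 3′ along its gene, and capitals mark matches to the motifs searched.

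Cyp8b1: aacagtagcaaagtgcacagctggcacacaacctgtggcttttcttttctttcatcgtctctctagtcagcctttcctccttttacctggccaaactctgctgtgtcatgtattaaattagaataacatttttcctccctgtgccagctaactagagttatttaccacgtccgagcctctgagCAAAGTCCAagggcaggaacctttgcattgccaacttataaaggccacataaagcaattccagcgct

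Nr1h4: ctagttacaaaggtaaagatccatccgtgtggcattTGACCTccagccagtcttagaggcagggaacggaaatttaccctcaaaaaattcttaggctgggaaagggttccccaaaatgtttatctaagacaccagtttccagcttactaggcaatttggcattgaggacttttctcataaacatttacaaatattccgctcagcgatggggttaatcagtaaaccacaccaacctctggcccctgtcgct

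Abcb11: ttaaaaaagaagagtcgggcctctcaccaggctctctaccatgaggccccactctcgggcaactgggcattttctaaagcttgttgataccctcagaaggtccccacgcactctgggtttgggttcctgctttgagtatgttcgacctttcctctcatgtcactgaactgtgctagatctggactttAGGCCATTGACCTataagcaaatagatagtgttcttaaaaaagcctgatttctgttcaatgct

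Nr0b2: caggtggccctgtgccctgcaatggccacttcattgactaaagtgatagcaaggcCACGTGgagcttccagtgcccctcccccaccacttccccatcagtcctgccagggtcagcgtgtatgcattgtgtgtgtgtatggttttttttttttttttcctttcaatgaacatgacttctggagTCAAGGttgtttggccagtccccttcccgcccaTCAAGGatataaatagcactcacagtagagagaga

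The motifs searched on both strands were the E-box CACGTG of the clock proteins CLOCK and BMAL1, the D-box TTATGNAA of the DBP family, the nuclear receptor core AGGTCA, the LRH-1 core TCAAGG, the HNF4A core CAAAGTCCA, and an inverted repeat (AGGNCA, any 1 base, TGACCT), the kind of element FXR binds. The inverted repeat began 63 bases before the Abcb11 start, as AGGCCATTGACCT, and its downstream part, TGACCT, is the AGGTCA core read on the other strand. It was present in 11 of 32851 promoter windows (0.03%). Upstream of Cyp8b1 the HNF4A core began 67 bases before the start, a match found in 0.38% of windows. The Nr0b2 window had 2 LRH-1 cores, starting 68 and 35 bases before the gene start, and an E-box starting 195 bases before it. LRH-1 cores occurred in 12.46% of all windows and the E-box in 6.02%. In the Nr1h4 window the only match was an AGGTCA core on the other strand. It started 214 bases before the internal start, and 14.02% of windows had that core. The other member windows were those of Cyp27a1 and 2 for Slc10a1. The Slc10a1 window directly before the gene had no match, and the 1 inside the gene had an AGGTCA core. The Cyp27a1 window, also inside its gene, had a D-box match, where 3.07% of windows have 1. These are matches of letters, and binding was not measured.

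Among the synthesis enzymes, Cyp7a1 disomes rose 3.28-fold at ZT12 over ZT0, while those of Cyp8b1 fell to a level 2.59-fold lower. Cyp7a1 (ENSMUSG00000028240) had 131 and 103 RPKM in the ZT0 libraries, 101 and 100.4 RPKM in the ZT2 libraries and 300.5 and 469 RPKM in the ZT12 libraries. Both ZT12 libraries were above all 4 others, and the ZT12 libraries were themselves 1.56-fold apart. The log2 change was 1.68 ± 0.24 (SE) for ZT12 against ZT0, with an adjusted p of 0.029 in limma. It was 1.89 ± 0.24 for ZT12 against ZT2, with a limma adjusted p of 0.017. Here and below a log2 change is the difference of mean log2(RPKM + 1), and p-values are adjusted by Benjamini-Hochberg over the 8355 tested genes. Among those genes 0.395% passed as higher at ZT12 than at ZT0 and 1.07% as higher at ZT12 than at ZT2. The call against ZT0 was lost in 6 of 18 alternative settings, where the adjusted p in limma reached 0.31. Those settings included the replicate number as a block (adjusted p of 0.0555 in limma) and the omission of any ZT0 or ZT12 library. Against ZT2 it was lost only without ZT12 replicate 2, at a limma adjusted p of 0.12.

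Cyp8b1 moved the other way. This enzyme of cholic acid synthesis (ENSMUSG00000050445) had 515 and 407 RPKM in the ZT0 libraries, 423 and 453 RPKM in the ZT2 libraries and 154 and 201 RPKM in the ZT12 libraries. The ZT12 libraries were both below the lowest of the others. Relative to ZT0 its log2 change at ZT12 was -1.37 ± 0.20 (SE), and relative to ZT2 it was -1.31 ± 0.20, with limma adjusted p-values of 0.029 and 0.028. Over all tested genes 0.551% passed as lower at ZT12 than at ZT0, and 0.993% as lower at ZT12 than at ZT2. The first call was lost in 6 of 18 settings, including the replicate block at a limma adjusted p of 0.060 and the omission of any ZT0 or ZT12 library. The second was lost in 7, where the adjusted p in limma reached 0.12, including the omission of any ZT0 or ZT12 library and the fit on the ZT12 and ZT2 libraries alone.

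**Figure D1:**
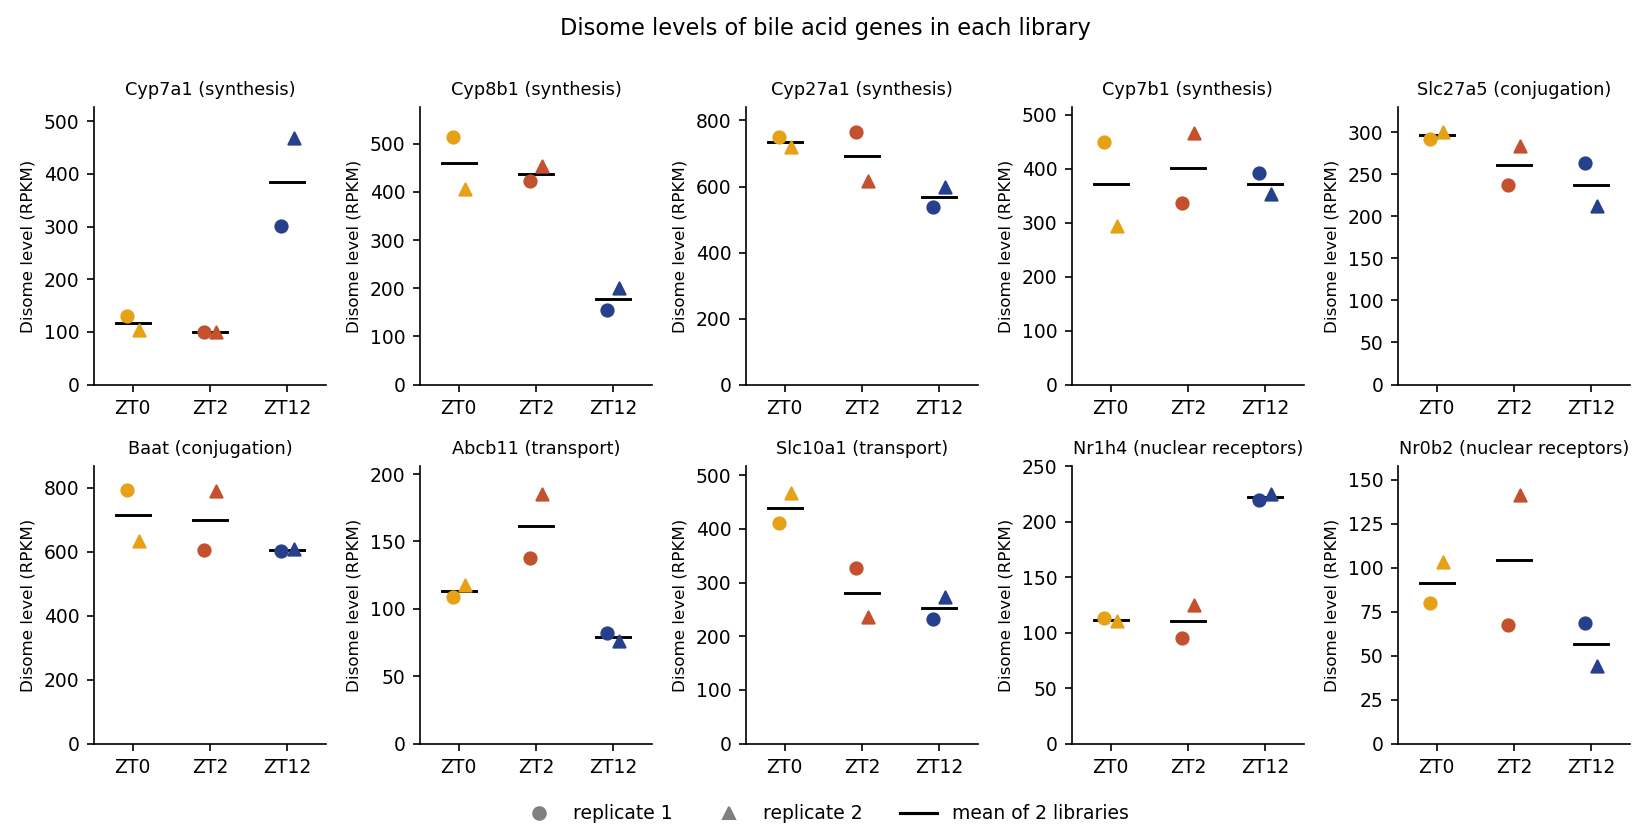
Disome level in RPKM (linear axis from 0) of each of the 10 genes in the 6 libraries, by time point; circles are replicate 1, triangles replicate 2 and bars the mean of 2 libraries. Cyp7a1 and Nr1h4 sit highest at ZT12, where Cyp8b1 sits lowest.

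The balance of these enzymes of the classic route was read as a ratio within each library, where scaling between libraries cancels. Cyp8b1 over Cyp7a1 was 0.513 and 0.429 at ZT12, against 3.93 and 3.93 at ZT0. At ZT2 it was 4.21 and 4.51. The order of the genes therefore differed between ZT12 and both morning times in every library. On the log2 scale the ratio at ZT12 was -3.07 relative to ZT0, and it ranged from -3.20 to -2.94 when each of those libraries was left out. The replicates agreed more closely in the ratio than in the levels at ZT0, where Cyp7a1 and Cyp8b1 were each 1.27-fold lower in replicate 2. Of the summed RPKM of the 4 synthesis enzymes, Cyp7a1 made up 21.7% and 28.9% at ZT12, against 7.11% and 6.79% at ZT0. Cyp8b1 made up 11.1% and 12.4% of that sum at ZT12, against 27.9% and 26.7% at ZT0. The ratio is given as a description, without a test, since the genes were read for their opposite course.

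**Figure D2:**
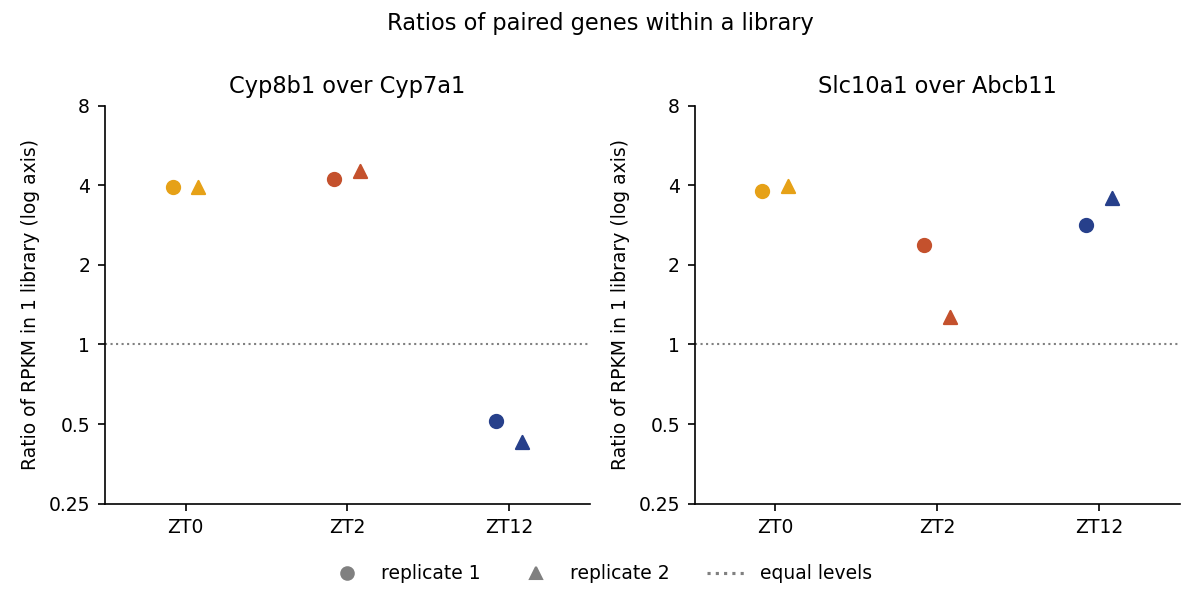
Ratio of RPKM within each library on a log axis, for Cyp8b1 over Cyp7a1 and for Slc10a1 over Abcb11; circles are replicate 1, triangles replicate 2, and the dotted line marks equal levels. The first ratio is 0.513 and 0.429 at ZT12 and above 3.9 in the other 4 libraries, and the second is lowest at ZT2.

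The enzymes of the alternative route did not pass the test in any comparison. Cyp27a1 (ENSMUSG00000026170) had 749 and 719 RPKM in the ZT0 libraries, 766 and 616 RPKM in the ZT2 libraries and 538 and 598 RPKM in the ZT12 libraries. Both ZT12 libraries were the lowest of the 6, at 1.29-fold under the ZT0 mean. The log2 difference between ZT12 and ZT0 was -0.37, with a 95% interval of -0.77 to 0.03 and a limma adjusted p of 0.38. Cyp7b1 (ENSMUSG00000039519) had 449 and 294 RPKM in the ZT0 libraries, 337 and 467 RPKM in the ZT2 libraries and 393 and 353 RPKM in the ZT12 libraries. Its replicates were 1.53-fold apart at ZT0, and all 3 time points overlapped. The log2 difference between ZT12 and ZT0 was 0.03, with an interval of -0.56 to 0.62, which leaves room for a change of that size either way. Relative to Cyp7a1, Cyp27a1 stood at 1.79 and 1.28 times its RPKM at ZT12, against 5.71 and 6.95 times at ZT0.

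The summed level of the 4 enzymes was 1503 ± 167 RPKM at ZT12, against 1684 ± 227 RPKM at ZT0 (SD, n = 2 each). At ZT2 it was 1632 ± 7.56 RPKM. The sum thus differed between time points by about the spread within them, although its parts did not keep their proportions.

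Neither conjugation enzyme passed the test. Slc27a5 (ENSMUSG00000030382), the bile acid coenzyme A ligase, had 292 and 301 RPKM in the ZT0 libraries, 237 and 284 RPKM in the ZT2 libraries and 263 and 212 RPKM in the ZT12 libraries. Both ZT0 libraries were the highest of the 6, but the log2 difference between ZT12 and ZT0 was -0.33 with an interval of -0.75 to 0.10 and a limma adjusted p of 0.46. Baat (ENSMUSG00000039653), the conjugating transferase, had 794 and 635 RPKM in the ZT0 libraries, 607 and 789 RPKM in the ZT2 libraries and 604 and 610 RPKM in the ZT12 libraries. Its log2 difference between ZT12 and ZT0 was -0.23 with an interval of -0.68 to 0.23. The highest library was only 1.31 times the lowest for Baat and 1.42 times for both Slc27a5 and Cyp27a1, against 4.67 times for Cyp7a1.

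The transporters had their highest means at different times and both had their lowest mean at ZT12. Slc10a1, the uptake carrier, was highest at ZT0, and Abcb11, the canalicular export pump, was highest at ZT2. Slc10a1 (ENSMUSG00000021135) had 412 and 466 RPKM in the ZT0 libraries, 327 and 235 RPKM in the ZT2 libraries and 233 and 274 RPKM in the ZT12 libraries. Both ZT0 libraries were above the other 4. Its log2 difference was -0.79 ± 0.20 (SE) between ZT12 and ZT0 and -0.66 ± 0.20 between ZT2 and ZT0, with limma adjusted p-values of 0.15 and 0.27. In 5 of 18 settings the first of these passed, including the fit on the ZT12 and ZT0 libraries alone, at a limma adjusted p of 0.047.

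Abcb11 (ENSMUSG00000027048) had 108 and 118 RPKM in the ZT0 libraries, 138 and 185 RPKM in the ZT2 libraries and 82.2 and 76.3 RPKM in the ZT12 libraries. The 3 time points did not overlap in this gene. Its ZT12 mean was 2.04-fold lower than its ZT2 mean, with a 95% interval of -1.46 to -0.55 for the log2 difference, and missed the threshold at a limma adjusted p of 0.053. It passed in 3 of 18 settings, without ZT2 replicate 1 (limma adjusted p of 0.020), with a filter at 5 RPKM (limma adjusted p of 0.040) and with voom on the recovered reads (limma adjusted p of 0.0082). The ratio of Slc10a1 over Abcb11 was 2.83 and 3.59 at ZT12, against 2.37 and 1.27 at ZT2, and it was 3.80 and 3.96 at ZT0. The ZT2 libraries had the lowest ratios and were themselves far apart.

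Of the nuclear receptors, Nr1h4 rose at ZT12 over ZT2. Nr1h4 (ENSMUSG00000047638) had 113 and 110.4 RPKM in the ZT0 libraries, 95.5 and 125 RPKM in the ZT2 libraries and 219.9 and 225 RPKM in the ZT12 libraries. Both ZT12 libraries were above all others, and they were 1.02-fold apart. The level at ZT12 was 2.02 times that at ZT2, and the log2 change of 1.02 ± 0.18 (SE) had an adjusted p of 0.044 in limma. In 9 of 18 settings the call was lost, where the adjusted p in limma reached 0.26. Those settings included the replicate block (limma adjusted p of 0.068), the ZT12 and ZT2 libraries alone (limma adjusted p of 0.13) and the omission of any ZT0 or ZT12 library. Against ZT0 the ZT12 level was 1.99 times as high, a log2 difference of 0.99 ± 0.18 with a limma adjusted p of 0.061. That comparison passed in 7 of 18 settings, among them the ZT12 and ZT0 libraries alone at a limma adjusted p of 0.019.

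Nr0b2 (ENSMUSG00000037583), the repressor, had 79.9 and 103 RPKM in the ZT0 libraries, 67.7 and 141 RPKM in the ZT2 libraries and 68.7 and 44.4 RPKM in the ZT12 libraries. The ZT12 libraries were below both ZT0 libraries but not below both ZT2 libraries, and the ZT2 replicates were 2.09-fold apart. Its log2 difference between ZT12 and ZT0 was -0.71, with an interval of -1.57 to 0.16 and a limma adjusted p of 0.44. The interval is the widest of the 10 genes, and Nr0b2 was also the gene with the fewest reads. Between ZT12 and ZT2 the log2 difference was -0.81 at a limma adjusted p of 0.29. It passed in 1 of 18 settings, without ZT2 replicate 1, where it was -1.34 at a limma adjusted p of 0.046, and without ZT2 replicate 2 it was -0.29 at a limma adjusted p of 0.58. Nr1h4 over Nr0b2 was 3.20 and 5.06 at ZT12, against 1.41 and 1.07 at ZT0, and it was 1.41 and 0.886 at ZT2.

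**Figure D3:**
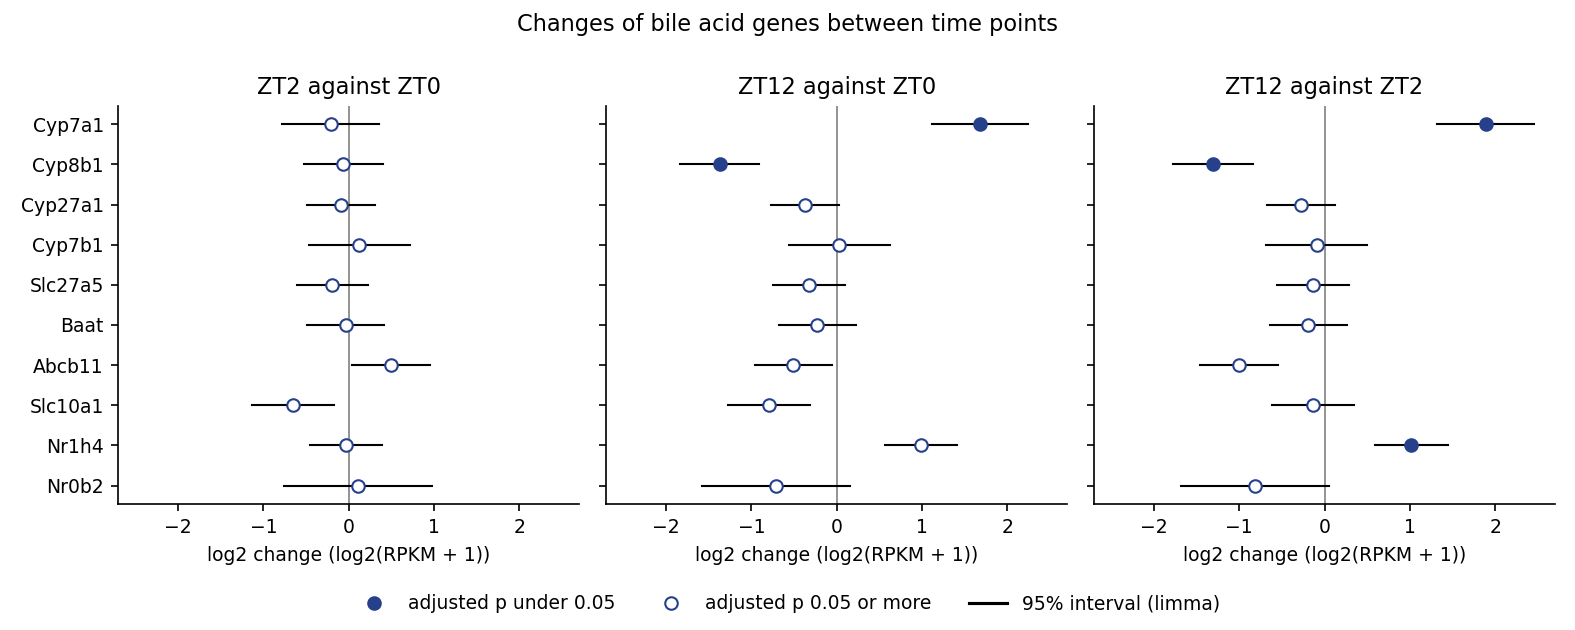
Log2 change of each gene, as the difference of mean log2(RPKM + 1), in the 3 comparisons of time points with 95% intervals from limma; filled points passed an adjusted p of 0.05. For ZT12 the filled points are Cyp7a1 and Cyp8b1 against ZT0, with Nr1h4 added against ZT2, and no gene is filled for ZT2 against ZT0.

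Counted over the list, 0 of 10 genes passed for ZT2 against ZT0, where 0.0239% of tested genes passed. Without adjustment, 2 of the 10 had a limma p under 0.05 (Abcb11 higher and Slc10a1 lower at ZT2), where 13.7% of tested genes did, and voom on the recovered reads also called 0 of 10. For ZT12 against ZT0, 2 of 10 passed, 1 in each direction, where 0.946% of tested genes passed. Among the 1123 tested genes with at least the mean RPKM of Nr0b2, 3.03% passed. For ZT12 against ZT2, 3 of 10 passed, Cyp7a1 and Nr1h4 higher and Cyp8b1 lower, where 2.06% of tested genes and 5.34% of those at least as abundant as Nr0b2 passed. These comparisons share the ZT12 libraries. In the F test over the 3 time points 2 of 10 genes passed, Cyp7a1 and Cyp8b1, with limma adjusted p-values of 0.026 and 0.033, where 1.26% of tested genes passed.

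The libraries of ZT12 and ZT0 did not overlap in 9 of 10 genes, all but Cyp7b1, where 54.4% of tested genes did not overlap. In 7 of those 9 the ZT12 libraries were the lower ones, where 27.8% of tested genes were lower without overlap. The median log2 difference of the 10 genes was -0.35, against -0.01 over all tested genes. The 10 genes are among the more abundant ones, and these shares and medians were not set against genes of like abundance. A difference particular to bile acid genes can therefore not be read from them. For ZT12 against ZT2 the medians were -0.16 for the 10 genes and 0.03 over all tested genes, and 5 of 10 genes did not overlap where 45.9% of tested genes did not. For ZT2 against ZT0 the medians were -0.05 and -0.04, and 4 of 10 genes did not overlap where 46.4% of tested genes did not.

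**Figure D4:**
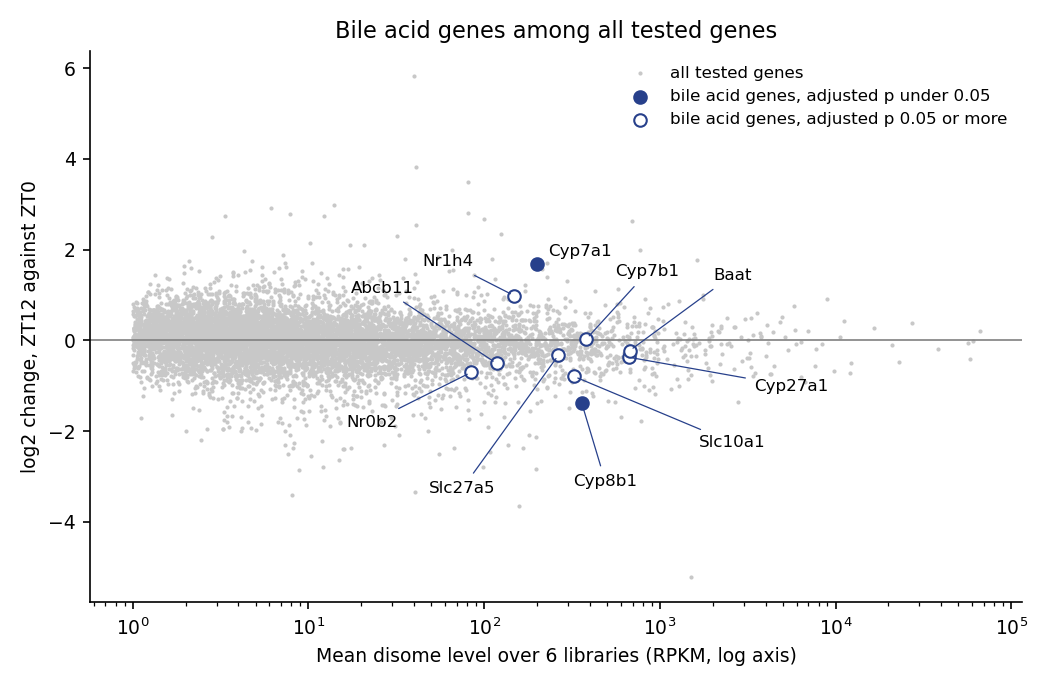
Log2 change for ZT12 against ZT0 plotted against the mean disome level over 6 libraries (RPKM, log axis) for all 8355 tested genes in grey and the 10 bile acid genes in blue, filled where the adjusted p was under 0.05. Cyp7a1 lies at 1.68 and Cyp8b1 at -1.37, on either side of the other 8.

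The order of the levels among the 10 genes shifted with time of day. By their means Baat was highest and Cyp27a1 next at ZT12, and Cyp27a1 was highest and Baat next at ZT0. At ZT12 both Baat libraries (604 and 610 RPKM) were above both Cyp27a1 libraries (538 and 598 RPKM), though narrowly. At ZT0 the libraries of these genes overlapped, so their order there was not resolved. By its mean Cyp7a1 stood 3rd of the 10 at ZT12, against 7th at ZT0, although Cyp7b1 was above it in ZT12 replicate 1. By its mean Cyp8b1 stood 8th at ZT12, against 3rd at ZT0, although Slc10a1 was above it in ZT0 replicate 2. At ZT0 the levels of Cyp7a1, Abcb11, Nr1h4 and Nr0b2 lay between 79.9 and 131 RPKM in every library. The order of Cyp7a1, Abcb11 and Nr1h4 was not resolved there. Nr0b2 was the lowest of the 10 in both ZT0 libraries and in both ZT12 libraries. In ZT0 replicate 2 it was only narrowly so, at 103.1 RPKM against 103.4 RPKM for Cyp7a1.

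Patterns were compared between genes by the root mean square difference of log2(RPKM + 1), centred on each gene's mean over the 6 libraries. Cyp7a1 was nearest to Nr1h4, at 0.44, and farthest from Cyp8b1, at 1.48. Cyp8b1 was nearest to Abcb11, at 0.42. Abcb11 and Nr0b2 were each other's nearest, at 0.29, and so were Cyp7b1 and Baat, at 0.15. Slc10a1 was nearest to Cyp27a1, at 0.25, Cyp27a1 to Slc27a5, at 0.22, and Slc27a5 to Baat, at 0.16. A scale shared by the genes of a library nearly cancels in these distances, which describe these 6 libraries only. The distances rest on 6 points each, and a small distance here also arises between genes that vary little.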

How the data were processed

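The 6 disome libraries were analysed from the RPKM tables that the authors deposited, 1 per library, with an identifier and a value per gene. The tools listed, per the submitters' processing notes, include edgeR, StringTie, STAR, Bowtie2 2.3.0, cutadapt and CASAVA 1.82, and the builds are GRCm38.p2 and mm10. Their roles and the gene filter behind the tables are not given there.

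Genes averaging 1 RPKM or more over the libraries were fitted on the scale log2(RPKM + 1) with limma 3.58.1 (R 4.3.3), with 1 mean per time point, no covariate, a variance trend and 3 residual degrees of freedom. The threshold was a Benjamini-Hochberg adjusted p of 0.05 over all tested genes. Whole reads were recovered from the steps of the RPKM values (8941 of 8941 genes, tolerance 1e-06 of a whole number) and gave depth, model lengths, read shares and 1 alternative (voom). The deposited scaling followed the upper quartile of reads per gene. Recovery and fit were tested on simulated data. All 10 genes are named. The members, gene lists, motifs and tests were chosen with earlier results of these data known. The planned list of other bile acid genes could not be matched and was not tested. Alternatives covered pseudocount, filter, scaling, variance prior, weights, replicate block, threshold and libraries left out. Promoter windows were searched as plain letters. Intervals on reads and shares cover counting error only.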

Additional observations from a re-analysis of the deposited data

How the results depend on the processing

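The 30 log2 changes of the 10 genes in 3 pairwise comparisons were each recomputed under 18 alternatives, which gave 540 values. The 5 that passed lost the threshold 29 times in all and never changed sign (0 times). Others gained it 16 times, and 18 values of log2 changes that had not passed changed sign. Counts are given in the order ZT2 against ZT0, then ZT12 against ZT0, then ZT12 against ZT2, then the F test. The reported counts were 0, 2, 3 and 2 of the 10 genes and 2, 79, 172 and 105 of all tested genes. Where a setting moved a count by over 1.5 times, the counts of the 10 genes were 0 (ZT12 against ZT0), 1 (ZT12 against ZT2) and 0 (F test) without the variance trend, 4 and 1 for the first 2 of these with array weights, 4 for ZT12 against ZT0 and for the F test with voom, 4 for the F test at an adjusted p of 0.1, and 4 and 1 for the first 2 in fits on only the 4 libraries compared. With the replicate number as a block they were 0 for ZT12 against ZT0 and 1 for the F test, and all tested genes gave 2, 51, 113 and 76. Counts of all tested genes in the same order were 1, 32, 80 and 34 without the trend, 9, 283, 356 and 350 with voom and, when calls were made at an adjusted p of 0.1, 8, 179, 423 and 305. Array weights gave 414, 57 and 211 for all but ZT2 against ZT0, fits on 4 libraries gave 1, 295 and 39, a pseudocount of 0.1 gave 6 for ZT2 against ZT0, and a filter at 5 RPKM gave 124 for ZT12 against ZT0. Fits with each library left out gave 0 to 0, 0 to 4, 0 to 5 and 0 to 5 of the 10 genes, and 0 to 256, 3 to 300, 5 to 609 and 5 to 630 of all; a time point with 1 library borrows its spread from the rest. Why these counts moved was not tested. Values that changed sign were, for ZT2 against ZT0 under quantile normalization, Cyp27a1 at 0.0385, Baat at 0.0881 and Nr1h4 at 0.0472, and, for ZT12 against ZT2 at equal totals, Cyp7b1 at 0.0110. With a library left out, the log2 change for ZT2 against ZT0 ranged from -0.23 to 0.11 for Cyp8b1, -0.25 to 0.0627 for Cyp27a1, -0.18 to 0.43 for Cyp7b1, -0.22 to 0.15 for Baat, -0.22 to 0.16 for Nr1h4 and -0.42 to 0.63 for Nr0b2. For ZT12 against ZT0 it ranged from -0.27 to 0.34 for Cyp7b1, and for ZT12 against ZT2 from -0.33 to 0.14 for Cyp7b1, -0.29 to 0.02 for Slc27a5 and -0.37 to 0.10 for Slc10a1. Libraries with the same number had deviations from their group means that correlated at -0.076, -0.019 and 0.018, and the labels tie no number to shared animals, so the numbers were not taken as pairs. The ratio of Cyp8b1 over Cyp7a1 was added after seeing the data. Of the 10 genes Nr0b2 had the fewest reads, 326 to 849 per library, and its ZT2 replicates were 2.09-fold apart.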
